A study of Mus musculus with 4 samples.

Results

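The genes described here are 8 cytokine genes of T cells, *Ifng*, *Tnf*, *Il10*, *Il2*, *Lta*, *Ltb*, *Csf2* and *Il17a*, chosen by name from the 19339 genes in the expression tables and matched by Entrez identifier. RNA-seq was performed on intraepithelial lymphocytes (IELs), the T cells that reside between the epithelial cells of the gut, from the small intestine of C57BL/6 mice. The sorted cells were TCRβ+CD8αα+ IELs, which carry an αβ T cell receptor and a CD8α homodimer in place of the CD8αβ heterodimer, and the gate took CD45+CD4−TCRβ+CD8α+CD8β− cells. The 2 control libraries came from Kdm6bfl/fl mice, whose *Kdm6b* alleles are flanked by loxP sites. The 2 libraries labelled Kdm6b-deficient came from Kdm6bfl/fl-CD4Cre mice, in which a CD4Cre transgene acts from the late CD4−CD8− thymocyte stage and so in αβ T cells generally, not in IELs alone. Each library held pooled RNA of 3 mice, and both groups carry the replicate numbers 1 and 3. Libraries are called control 1, control 3, deficient 1 and deficient 3 below, and the ages of these mice are not given in the sources used here. *Kdm6b* encodes a demethylase of histone H3 lysine 27, and the comparison asks whether its loss in T cells is accompanied by other levels of cytokine mRNA.

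Cytokines are secreted or membrane-bound proteins by which T cells instruct neighbouring cells. IFN-γ (*Ifng*) activates macrophages and raises antigen presentation in epithelium, TNF (*Tnf*) and the lymphotoxins (*Lta* and *Ltb*) signal through receptors of the TNF receptor family, IL-2 sustains T cell growth, GM-CSF (*Csf2*) acts on myeloid cells, IL-17A acts on epithelium and neutrophil recruitment, and IL-10 restrains inflammation. In resting IELs many effector mRNAs are kept ready while translation and stability are restrained, and most cytokine mRNAs carry AU-rich elements in the 3′ untranslated region that shorten their lifetime.

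The members differ in those elements. The densest stretch of the pentamer ATTTA is printed for the 5 mRNAs with 3 or more copies within 30 bases. Whether the number of copies bears on the mRNA levels was not tested. In the longest coding transcript of each gene in GENCODE vM21 (GRCm38, the build also called mm10), the pentamer was counted on the transcript strand with overlapping matches allowed. Its copies numbered 9 in *Csf2*, 8 in *Tnf*, 7 in *Il2*, 7 in *Il17a*, 6 in *Ifng*, 6 in *Il10*, 3 in *Lta* and 0 in *Ltb*. Across 20243 genes 65.1% had at least 1 copy and 21.4% had 5 or more. The nonamer TTATTTATT, which contains the pentamer, occurred 5 times in *Tnf*, 4 times in *Csf2* and once each in *Il2* and *Lta*, and 7.7% of the genes held it. The 3′ untranslated region of *Ltb* was 156 bases long, where the median of all genes was 947 bases. Capitals mark the pentamers in the sites below, which lie at chr17:35199679-35199705 on the minus strand for *Tnf*, chr11:54247326-54247352 on the minus strand for *Csf2*, chr10:118445335-118445359 on the plus strand for *Ifng*, chr3:37121040-37121067 on the minus strand for *Il2* and chr1:20734203-20734232 on the plus strand for *Il17a*.
Tnf: ATTTAttATTTATTTAttATTTATTTA
Csf2: aatATTTATTTATTTATTTATTTAttt
Ifng: ATTTAttaatATTTAaaactATTTA
Il2: ATTTATTTAaatATTTAactttaATTTA
Il17a: ATTTAtatgagctATTTAtgaatctATTTA

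Promoters were searched in windows from 250 bases before to 50 after the RefSeq start site (GRCm38.p6), in which 7 of the 8 members had an entry. The motif TATAAA, the core of the TATA box, occurred in 5 of the 7 windows, against 13.6% of 32851 promoters of the same length. It lay 30 to 25 bases before the start of *Ifng*, 29 to 24 before that of *Tnf*, 31 to 26 before those of *Il2* and *Il17a*, and 167 to 162 before that of *Lta*, whose window was set at a start site 227 bases inside the extent of the gene given below, so that this match lies within that extent. The core of NFAT sites, GGAAAA, was found in the windows of *Tnf* and *Il2* (23.4% of promoters), TGANTCA of AP-1 in that of *Il17a* (7.8%) and the kappaB motif in that of *Ltb* (8.5%). The T-box motif AGGTGTGA (1.3%), the CRE motif TGACGTCA (1.8%) and the octamer ATTTGCAT (1.7%) matched in 0 of the 7 windows. Both strands were searched, overlapping matches of different motifs were counted separately, and a match describes letters only. The 120 bases before the start site are printed for *Ifng*, *Tnf* and *Ltb*, the 3 members with the highest mean FPKM among those with an entry, with the matches in capitals, at chr10:118440926-118441045 on the plus strand for *Ifng*, chr17:35202008-35202127 on the minus strand for *Tnf* and chr17:35194387-35194506 on the plus strand for *Ltb*.
Ifng: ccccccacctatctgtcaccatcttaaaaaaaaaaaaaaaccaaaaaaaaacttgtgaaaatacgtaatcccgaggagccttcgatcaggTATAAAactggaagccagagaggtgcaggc
Tnf: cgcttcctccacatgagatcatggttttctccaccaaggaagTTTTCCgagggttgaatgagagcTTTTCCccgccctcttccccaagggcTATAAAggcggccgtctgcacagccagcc
Ltb: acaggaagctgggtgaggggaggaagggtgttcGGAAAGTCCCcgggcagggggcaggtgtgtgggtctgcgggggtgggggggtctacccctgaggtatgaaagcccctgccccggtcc

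Expression is given as FPKM, in which fragments are divided by transcript length and sequencing depth, so that levels of different genes can be compared per length. Relative to control 1, the depth that the low values imply was 0.989 in control 3, 1.01 in deficient 1 and 0.829 in deficient 3. *Kdm6b* itself (Entrez 216850, chr11:69398508-69420367) had 16.5 and 16.01 FPKM in control 1 and control 3, and 18.2 and 11.1 FPKM in deficient 1 and deficient 3. It was thus not lower in the library labelled deficient 1 than in the controls, and a gene-level value also takes in any exons that a deletion leaves, so all directions below refer to the labels. Of the T cell markers, *Cd3e* had 304 to 505 FPKM and *Cd8a* 280 to 463 FPKM, while *Cd8b1*, which the gate excluded, had at most 1.64 FPKM. Deficient 3 stood apart in its markers of other cells. FPKM summed over 20 markers of intestinal epithelium was 1725 in control 1, 6959 in control 3, 5114 in deficient 1 and 14900 in deficient 3, with none of the 20 at 0, while the sum over 8 T cell markers was 4452, 3577, 3489 and 2598. In bulk RNA a smaller share of cells of a type and less RNA per cell cannot be told apart.

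The cytokine mRNAs covered a wide range of levels. *Ltb* was the most abundant member with a mean of 78.3 FPKM over the 4 libraries, above 88.5% of the 12009 genes tested. *Il10* followed with 23.4, *Ifng* with 23.1 and *Tnf* with 12.3 FPKM, then *Csf2* with 3.37, *Il17a* with 2.33, *Lta* with 1.68 and *Il2* with 0.365 FPKM. Among neighbours in this order, the ranges over the 4 libraries were apart for *Tnf* and *Csf2* alone. *Ltb* was above *Il10* in all 4 libraries although their ranges overlapped, whereas *Ifng* was above *Tnf* in 2 of 4 and *Il17a* above *Lta* in 2 of 4. *Ltb* made up 51.1% of the summed FPKM of the 8 genes in control 1, 49.8% in control 3, 57.6% in deficient 1 and 57.4% in deficient 3. The sum itself was 180 and 112 FPKM in the controls and 233 and 54.4 FPKM in the Kdm6b-deficient libraries, so that the Kdm6b-deficient libraries held both the highest and the lowest total.

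**Figure D1:**
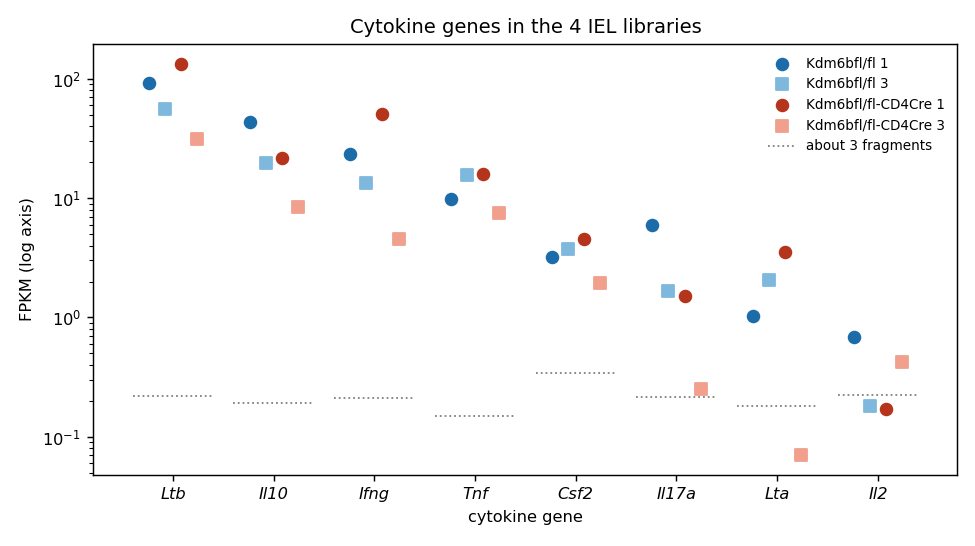
FPKM of the 8 cytokine genes on a log axis, ordered by mean, with 1 point per library (blue for Kdm6bfl/fl, red for Kdm6bfl/fl-CD4Cre, circles for replicate 1, squares for replicate 3) and a dotted line at about 3 fragments. In these deposited values the Kdm6b-deficient libraries bracket the controls for 5 genes, *Il17a* alone has groups that do not overlap, and *Il2* and 1 library each of *Lta* and *Il17a* lie near the dotted line.

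No cytokine gene passed an adjusted p of 0.05 between the genotypes in the fit without a replicate block (0 of 7 tested, against 0.0% of all genes). In that fit 0 of 7 had an unadjusted p under 0.05 in limma, against 5.35% of all genes. The smallest adjusted p over all genes was 0.193. All 7 members tested had a negative log2 difference, deficient minus control, as had 5993 of the 12009 genes, and their median of −0.16 stood beside 0.001 over all genes. The sign is that of mean log2(FPKM + 1). The mean of untransformed FPKM was higher in the Kdm6b-deficient group for *Ifng* (27.8 against 18.4), *Ltb* (82.7 against 73.9) and *Lta* (1.81 against 1.55). For *Ifng*, *Tnf*, *Ltb* and *Csf2* the sign turned positive when libraries were scaled to T cell genes, a scaling under which the median of all genes was 0.38. A difference below −1 was found for 2 members, *Il10* and *Il17a*, against 0.441% of all genes. For 1 gene on its own, the smallest two-sided p that exact permutation of 2 and 2 libraries allows is 0.333. Since 3 mice were pooled per library, p-values measure the spread between pools.

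**Figure D2:**
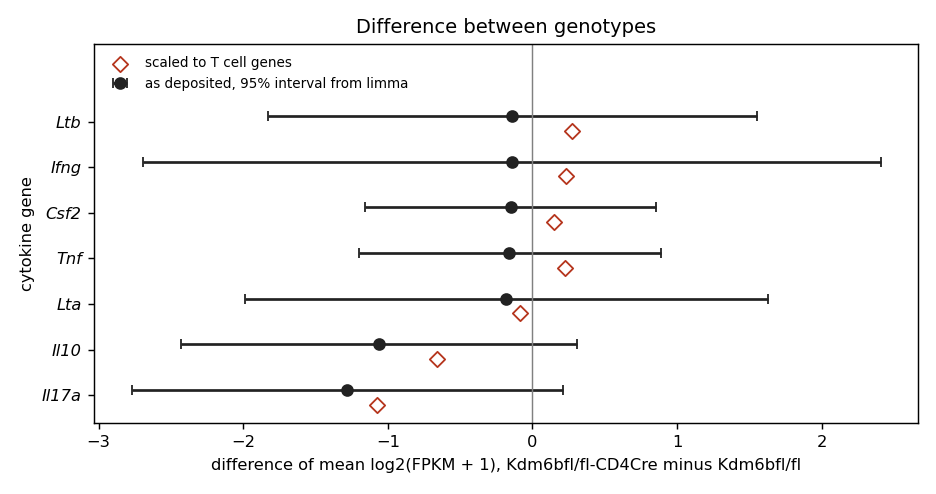
Difference of mean log2(FPKM + 1), Kdm6bfl/fl-CD4Cre minus Kdm6bfl/fl, for the 7 cytokine genes tested, with n = 2 libraries per genotype. Filled points with bars are the deposited values with the 95% interval of limma, all of which include 0, and open diamonds are the values after scaling to T cell genes, where *Ifng*, *Ltb*, *Tnf* and *Csf2* lie above 0.

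On the log2(FPKM + 1) scale, IFN-γ was the cytokine whose mRNA varied most, while the folds of *Lta* and *Il17a* between their highest and lowest library were larger but rest on about 1 and 3 fragments in the lowest. *Ifng* (Entrez 15978, chr10:118441046-118445894, plus strand) had 23.3 FPKM in control 1, 13.5 in control 3, 51.2 in deficient 1 and 4.53 in deficient 3. The Kdm6b-deficient libraries lay on opposite sides of both controls and differed 11.3-fold from each other. Their gap of 3.24 on the log2(FPKM + 1) scale was exceeded in this direction by 0.175% of the genes tested and in either direction by 0.217%, and the median absolute gap was 0.332. The difference between genotypes was −0.14 (standard error 1.02, 95% interval −2.69 to 2.41, adjusted p = 0.978 from limma). Without deficient 3 it was 1.48 and without deficient 1 it was −1.76, so a single library decided its sign. About 57 fragments lay behind the value in deficient 3 (95% Poisson interval 43.2 to 73.9, counting error only) and about 781 behind that in deficient 1. After scaling to T cell genes the values were 18.3, 12.8, 48.3 and 6.43 FPKM in the same order, and the Kdm6b-deficient libraries still differed 7.51-fold.

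The TNF family members lie side by side. *Ltb*, *Tnf* and *Lta* occupy 11072 bases of chromosome 17, with 3061 bases between *Ltb* and *Tnf* and 1157 between *Tnf* and *Lta*. Lymphotoxin β (*Ltb*, Entrez 16994, chr17:35194507-35196305, plus strand), which anchors lymphotoxin α at the membrane, had 91.8 FPKM in control 1, 56.0 in control 3, 134 in deficient 1 and 31.3 in deficient 3. Both controls thus lay between the Kdm6b-deficient libraries, as for *Ifng*, and the difference was −0.14 (standard error 0.677, 95% interval −1.83 to 1.55, adjusted p = 0.967 from limma). Its gap between the Kdm6b-deficient libraries was 2.07 on the log2 scale, exceeded by 0.566% of genes in this direction and by 0.974% in either. The values scaled to T cell genes were 72.2, 53.1, 127 and 44.4 FPKM, a 2.86-fold difference between deficient 1 and deficient 3.

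TNF, the proinflammatory trimer, varied less. *Tnf* (Entrez 21926, chr17:35199367-35202007, minus strand) had 9.92 FPKM in control 1, 15.6 in control 3, 16.02 in deficient 1 and 7.55 in deficient 3. Control 3 and deficient 1 were alike and high, and control 1 and deficient 3 were low. The difference was −0.16 (standard error 0.418, 95% interval −1.20 to 0.89, adjusted p = 0.933 from limma). Lymphotoxin α (*Lta*, Entrez 16992, chr17:35203165-35205578, minus strand), which forms trimers alone or with lymphotoxin β, had 1.03, 2.07, 3.54 and 0.07 FPKM in the same order. These values rest on about 18, 36, 63 and 1 fragments, the last with a 95% Poisson interval of 0.0253 to 5.57, and the difference of −0.18 had an adjusted p of 0.959 from limma. With a pseudocount of 0.1 FPKM in place of 1 that difference was −0.99 (adjusted p = 0.874 from limma). Unlike *Ltb*, both *Tnf* and *Lta* were higher in control 3 than in control 1, and the ratio of *Ltb* to *Lta* was 89.2 in control 1, 27.0 in control 3 and 37.9 in deficient 1, and is not given for deficient 3, where *Lta* rests on about 1 fragment.

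Among the growth factors, *Csf2* (Entrez 12981, chr11:54247270-54249899, minus strand), which encodes GM-CSF, had 3.24, 3.76, 4.53 and 1.96 FPKM in control 1, control 3, deficient 1 and deficient 3. Its controls were nearly equal and lay between the Kdm6b-deficient libraries, with a difference of −0.15 (standard error 0.403, 95% interval −1.16 to 0.86, adjusted p = 0.935 from limma). *Il2* (Entrez 16183, chr3:37120713-37125954, minus strand) had 0.69, 0.18, 0.17 and 0.42 FPKM, which correspond to about 10, 3, 2 and 5 fragments. It was below 1 FPKM in each library and was not tested, and no difference was detectable at this depth. Of the receptor chains for IL-2, *Il2rb* had a mean of 656 FPKM and *Il2rg*, the common γ chain, 571 FPKM. *Il2ra*, the α chain, had a mean of 3.235 FPKM (named after its values were seen).

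IL-10 and IL-17A had the largest differences between the group means of log2(FPKM + 1). *Il10* (Entrez 16153, chr1:131019845-131024970, plus strand) had 43.8 FPKM in control 1, 19.7 in control 3, 21.8 in deficient 1 and 8.38 in deficient 3. Control 1 was the highest and deficient 3 the lowest, but deficient 1 was above control 3, so the groups overlapped. The difference was −1.06 (standard error 0.548, 95% interval −2.43 to 0.31, adjusted p = 0.755 from limma), and it was −0.50 without control 1, −0.42 without deficient 3 and −0.66 after scaling to T cell genes. The gap between the controls, 1.11 on the log2 scale, was as large as the difference between genotypes. With the replicate number as a block the adjusted p was 0.00701 from limma, and 8.49% of all genes were then under 0.05. Neither labels nor methods say that this number marks pools prepared together. *Il10* was also the target of an RT-qPCR assay, whose primers are printed to show which part of the mRNA it reads, while the FPKM value covers the whole transcript. They match exon 4 (chr1:131022490-131022509) and exon 5 (chr1:131024198-131024218) of 5 and span 108 bases of coding sequence.
Il10 forward: atcgatttctcccctgtgaa
Il10 reverse: tgtcaaattcattcatggcct

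*Il17a* (Entrez 16171, chr1:20730905-20734496, plus strand) had 5.90 FPKM in control 1, 1.67 in control 3, 1.5 in deficient 1 and 0.25 in deficient 3. It was the 1 member of 7 whose groups did not overlap, being lower in both Kdm6b-deficient libraries, a pattern held by 18.6% of all genes. The margin was narrow, since about 24 fragments in control 3 (95% Poisson interval 15.4 to 35.7) and about 22 in deficient 1 (13.8 to 33.3) differed by less than counting error. The difference was −1.28 (standard error 0.597, 95% interval −2.77 to 0.21, adjusted p = 0.755 from limma), it was −0.59 without control 1, and control 1 exceeded control 3 by 1.37 on the same scale. With a pseudocount of 0.1 FPKM the difference between genotypes was −2.12 (adjusted p = 0.763 from limma). With the replicate number as a block the adjusted p was 0.0222 from limma, under the same limit as for *Il10*. *Il17f*, the paralog next to which *Il17a* is often expressed, had 4.18, 0.69, 1.42 and 0.19 FPKM.

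Across the members, 5 of the 7 tested, *Ifng*, *Ltb*, *Tnf*, *Lta* and *Csf2*, were highest in deficient 1, where 20.2% of all genes were highest. All 7 were lowest in deficient 3, where 32.5% of all genes were lowest, and where the epithelial sum was highest and the T cell sum lowest. The 5 genes were thus highest in one Kdm6b-deficient library and lowest in the other, as were 8.92% of all genes. After scaling to T cell genes, 5 of 7 were lowest in deficient 3 (5.04% of all genes), since *Tnf* and *Csf2* were then lowest in control 1, and 3 of 7, *Ifng*, *Lta* and *Ltb*, kept both extremes (2.39% of all genes). A gap above 1 on the log2 scale from deficient 1 down to deficient 3 was found for 4 of 7, *Ifng*, *Lta*, *Ltb* and *Il10*, against 3.07% of all genes, and *Il17a* lay at that limit. Without deficient 3 the differences of *Ifng*, *Ltb*, *Tnf*, *Lta* and *Csf2* between genotypes were positive, from 0.30 to 1.48, and these 5 of 7 were above both controls, against 32.2% of genes. Without deficient 1 all 7 were below both controls, against 39.8% of genes, with differences down to −1.78 for *Il17a*. Without control 1 the differences of the 7 lay between −0.595 for *Il17a* and 0.231 for *Ifng*. *Il10* and *Il17a* were highest in control 1, as were 30.5% of all genes. Within the controls the members divided again, *Ifng*, *Ltb*, *Il10* and *Il17a* being higher in control 1 and *Tnf*, *Lta* and *Csf2* higher in control 3. The balance of IL-10 to IFN-γ mRNA was 1.88 in control 1, 1.46 in control 3 and 1.85 in deficient 3, and 0.426 in deficient 1. The ratio of *Ifng* to *Tnf* was 2.34 and 0.863 in the controls and 3.19 and 0.60 in the Kdm6b-deficient libraries, so that it was above 1 in both replicate 1 libraries and below 1 in both replicate 3 libraries.

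**Figure D3:**
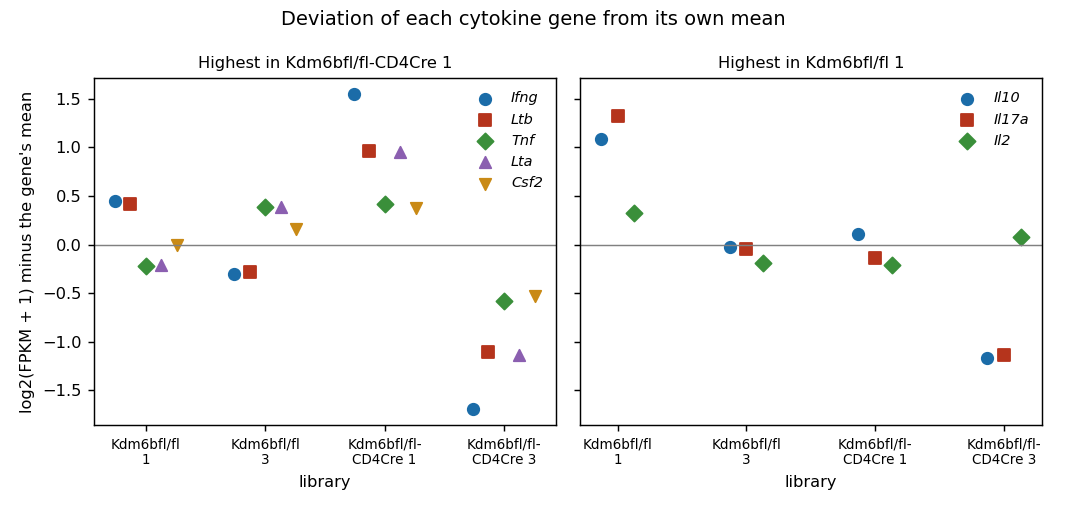
Each gene's log2(FPKM + 1) minus its mean over the 4 libraries, with genes highest in Kdm6bfl/fl-CD4Cre 1 on the left and those highest in Kdm6bfl/fl 1 on the right. On the left all 5 genes are above their mean in Kdm6bfl/fl-CD4Cre 1 and below it in Kdm6bfl/fl-CD4Cre 3, and on the right *Il10* and *Il17a* share nearly the same positions.

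*Cd4* was 1 of 2 coreceptor markers and was picked after its values were seen, and the gate excluded CD4+ cells. It had 30.6 FPKM in control 1, 10.1 in control 3, 30.5 in deficient 1 and 3.17 in deficient 3. It was thus higher in replicate 1 of both genotypes, as were *Ifng*, *Ltb*, *Il10* and *Il17a* but not *Tnf*, *Lta* and *Csf2*. *Cd8b1*, the other coreceptor marker, had 0.0, 0.90, 1.64 and 0.73 FPKM in the same order, and was thus lower in replicate 1 of the controls. The sum over 6 B and plasma cell markers was 59.5, 34.3, 88.2 and 32.3 FPKM, with none of the 6 at 0. *Jchain* alone gave 16.7, 0.94, 48.8 and 0.13 FPKM of it, and the other 5 summed to 42.8, 33.4, 39.5 and 32.1 FPKM, highest in control 1. The 8 markers of myeloid and dendritic cells summed to 472, 318, 533 and 730 FPKM with none at 0, most of it *Lyz2*, without which the other 7 summed to 106, 64.6, 137 and 105 FPKM. The 4 markers of type 3 innate lymphoid cells, which also make IL-17A, IL-22 and GM-CSF, summed to 2.83, 7.13, 6.52 and 10.0 FPKM with none at 0. Of 4 mast cell markers 3 were listed, summing to 36.3 to 67.8 FPKM, nearly all of it *Kit*. The gate on CD45, TCRβ and CD8α is meant to remove B, mast, innate lymphoid and epithelial cells and most myeloid cells. Epithelial markers were nevertheless measured at the sums given above. The part of any such cells, and of the epithelial RNA above, in the cytokine values was not tested.

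**Figure D4:**
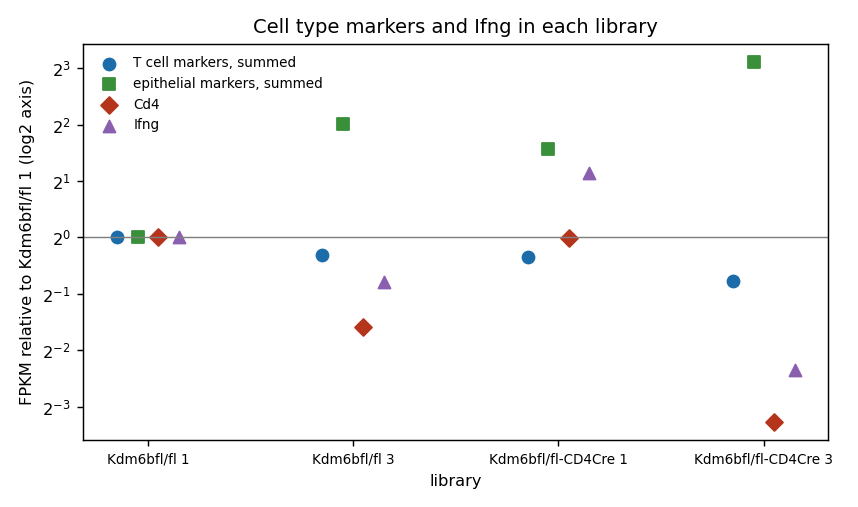
FPKM of *Ifng* and *Cd4* and the summed FPKM of 8 T cell markers and 20 epithelial markers in each library, relative to Kdm6bfl/fl 1, on a log2 axis. *Cd4* and *Ifng* are both low in Kdm6bfl/fl-CD4Cre 3, where the epithelial sum is 8.63 times and the T cell sum 0.584 times that of Kdm6bfl/fl 1. In Kdm6bfl/fl-CD4Cre 1 *Ifng* is 2.2 times its value in Kdm6bfl/fl 1, while *Cd4* is at a similar level in both.

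The genes whose profile over the 4 libraries was most like that of a member were taken by the Euclidean distance between centred log2(FPKM + 1) values, which describes 4 points only. Nearest to *Ltb* were *Cxcr3*, a chemokine receptor of effector T cells (distance 0.101), *Itpr1*, a calcium channel of the endoplasmic reticulum (0.101), and *Irf4*, a transcription factor induced by T cell receptor signals (0.154). *Cxcr3* had 52.3, 32.9, 77.2 and 16.4 FPKM, which rank the libraries as *Ltb* did. Nearest to *Ifng* among genes with a symbol was *Thy1*, a surface protein of T cells, with 10.8, 5.50, 19.1 and 1.73 FPKM (0.285), and the other two were predicted transcripts. *Il10* was closest to *Men1* (0.281), *Pim2* (0.331) and *Il17a* (0.348), while *Il17a* was closest to a predicted transcript (0.289), *Il10* and *Il17f* (0.509). *Csf2* was closest to *Erich1* (0.041), *Fam124b* (0.062) and *Prkcb* (0.089), *Tnf* to *Zfp82* (0.128), *H2bc9* (0.137) and *Spice1* (0.205), and *Lta* to a predicted transcript (0.291), *Phf11a* (0.30) and *Zfp273* (0.394). Among pairs of members the smallest distances were those of *Csf2* with *Tnf* (0.317) and of *Il10* with *Il17a*.

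The receptors of these cytokines showed no shared direction. All 15 receptor chains listed were tested, 8 with a negative and 7 with a positive difference and a median of −0.13, and 0 passed an adjusted p of 0.05 in limma. Groups did not overlap for 4 chains that were higher (18.4% of all genes) and 4 that were lower (18.6%). The most abundant were *Il2rb*, *Il2rg* and *Ifngr1*, the ligand-binding chain of the IFN-γ receptor, with differences of −0.46, −0.42 and −0.44. An unadjusted p under 0.05 was found for 3 of the 15 chains, against 5.35% of all genes, named here after their values were seen. *Tnfrsf1b*, the second TNF receptor, had 139, 94.1, 81.5 and 61.9 FPKM, a difference of −0.68. *Ltbr*, the receptor of the lymphotoxin α and β heterotrimer, had 5.45, 7.88, 10.5 and 14.9 FPKM, a difference of 0.84, and *Csf2ra*, a chain of the GM-CSF receptor, had 11.1, 8.57, 19.0 and 17.0 FPKM, a difference of 0.82. *Ltbr* is known as a gene of epithelial, stromal and myeloid cells rather than of T cells.

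Of 25 other cytokines and ligands of T cells, 22 were listed and 18 tested, 10 with a negative and 8 with a positive difference and a median of −0.22. Again 0 had an adjusted p under 0.05 in limma, and 2 of 18 were higher (18.4% of all genes) and 1 lower (18.6%) without overlap. Chemokines led by level, *Ccl5* with a mean of 2839 FPKM, *Xcl1* with 541 and *Ccl4* with 109 FPKM, at differences of −0.60, −0.19 and 0.21. *Areg*, the epidermal growth factor receptor ligand amphiregulin, was the 1 gene of the list with a difference above 1 (6.2% of all genes), having 5.46, 15.1, 14.2 and 27.4 FPKM and a difference of 1.02 (standard error 0.53, adjusted p = 0.755 from limma). Its libraries had the same order as the epithelial sum. *Tgfb3*, 1 of 18, had an unadjusted p under 0.05 (5.35% of all genes), with 58.7, 45.6, 32.3 and 36.5 FPKM and a difference of −0.58. *Cd40lg*, the ligand through which T cells help B cells, had 11.8, 6.26, 18.9 and 1.30 FPKM, and *Il22* had 4.26, 10.7, 11.1 and 0.60 FPKM, each highest in deficient 1 and lowest in deficient 3. These last 3 genes were chosen after their values were seen.

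Of the transcription factors that act at cytokine genes, 13 of 18 tested had a negative difference, beside 5993 of the 12009 genes, and the median was −0.21. This median was 0.05 without deficient 3 and 0.20 after scaling to T cell genes, and 14 of the 18 were lowest in deficient 3, which had the lowest T cell marker sum. Without overlap, 7 were lower against 18.6% of all genes and 1 was higher against 18.4%. *Fos* and *Jun*, subunits of AP-1, had means of 795 and 259 FPKM and differences of 0.80 and 0.72, and *Junb*, another subunit, had 1407 FPKM and −0.25. *Tbx21*, which encodes T-bet, an activator of *Ifng*, had 84.1, 53.0, 84.2 and 49.0 FPKM and a difference of −0.06 (named after its values were seen). Replicate 1 was above replicate 3 by a similar margin in both genotypes, which was not so for *Ifng*. Of 12 factors that bind or destabilise AU-rich cytokine mRNAs, 7 were negative and 5 positive with a median of −0.11, and without overlap 1 was higher (18.4% of all genes) and 2 lower (18.6%). *Zfp36*, which encodes tristetraprolin, a protein that recruits decay enzymes to the pentamers printed above, had 296 and 450 FPKM in the controls and 462 and 632 FPKM in the Kdm6b-deficient libraries, a difference of 0.57, and was the 1 that was higher without overlap (adjusted p = 0.755 from limma). *Zfp36l1*, its paralog, had −0.17 and *Arid5a* −0.52. In TNF shedding, *Adam17*, the protease that releases TNF from the membrane, had 19.3 and 19.3 FPKM in the controls and 15.6 and 16.3 FPKM in the Kdm6b-deficient libraries, a difference of −0.27, and *Rhbdf2*, its cofactor, had 0.63, while *Rhbdf1* was not tested. The median over the 2 genes tested was 0.19. It was 0.554 after scaling to T cell genes, and 0.053 to 0.316 when 1 library was left out. In none of these 3 lists did a gene pass an adjusted p of 0.05 in limma (0 of 32).

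Genes of the IFN-γ response were described to see whether they ranked the libraries as *Ifng* did. Of 18 tested, 11 were highest in deficient 1 (20.2% of all genes) and 15 lowest in deficient 3 (32.5%). These are ranks of the deposited values, not of values scaled to T cell genes. The T cell scale factor was 1.272 in control 1 and lowest, at 0.704, in deficient 3. Whether the ranks hold after that scaling was not tested. The 3 most abundant had a far narrower range than *Ifng*. *Psmb8*, an immunoproteasome subunit, had 421, 361, 406 and 241 FPKM, *Psmb9*, another, had 212, 206, 218 and 171 FPKM, and *Ifi47*, an interferon-induced GTPase, had 223, 179, 216 and 132 FPKM. *Cxcl10* had 36.3, 37.8, 50.3 and 17.2 FPKM and *Cxcl9* 1.05, 0.65, 2.67 and 0.55 FPKM, and both varied more (named after their values were seen). Between genotypes 14 were negative and 4 positive with a median of −0.21, 2 of 18 were higher (18.4% of all genes) and 1 lower (18.6%) without overlap, and 0 passed an adjusted p of 0.05 in limma. The medians of the receptors, the other cytokines, the transcription factors, the mRNA decay factors and the IFN-γ response turned positive after scaling to T cell genes, where they lay between 0.19 and 0.27, below the median of all genes.

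**Figure D5:**
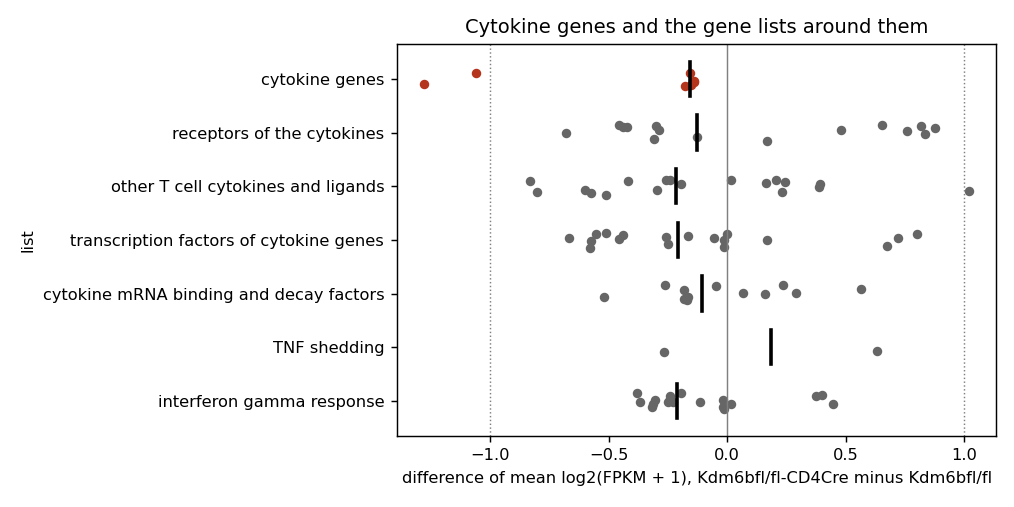
Difference of mean log2(FPKM + 1), Kdm6bfl/fl-CD4Cre minus Kdm6bfl/fl, for each tested cytokine gene (red) and each tested gene of 6 lists (grey), with a black bar at the median of each row and dotted lines at −1 and 1. *Il10* and *Il17a* lie below −1, *Areg* lies above 1, and the medians of the rows lie between −0.22 and 0.19.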

How the data were processed

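RNA of sorted IELs was sequenced in 4 libraries, 2 per genotype. The deposited values are FPKM with 2 decimals, which the authors obtained with RSEM after mapping to mm10. The submitters' processing notes name Bowtie2 2.2.5 and RSEM 1.2.8. Symbols and coordinates came from RefSeq (GRCm38.p6), and transcripts from GENCODE vM21. Fragments per gene were estimated here from the steps between low FPKM values after 0.14 kb was taken from each transcript's length, so intervals cover counting error only.

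The 12009 genes reaching 1 FPKM in 2 or more libraries were analysed as log2(FPKM + 1), unscaled. Genotypes were compared with limma 3.58.1 (R 4.3.3, lmFit and eBayes with a trend), with Benjamini-Hochberg adjustment over all genes tested. In a simulation every gene was given the median spread of the genes tested. With these sample sizes the model then called 200 of 200 genes with a log2 change of 2 and 9 unchanged genes among 12009. At a log2 change of 4 it called 200 of 200. Genes with a wider spread were not simulated, so the simulation does not show whether such changes in them would be called. Differences understate changes of genes near 1 FPKM. Scaling to T cell genes took the mean log2 level of *Cd3d*, *Cd3e*, *Cd3g*, *Cd247* and *Ptprc* in each library and divided its FPKM by 2 to the power of that mean's deviation from the mean over libraries.

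Genes named were the 8 cytokine genes, *Kdm6b*, from each of 6 lists the 3 with the highest mean FPKM and any with a difference above 1 or below −1, and the 3 genes nearest in profile to each cytokine gene tested, and others are marked as chosen after their values were seen. Single genes of the cell type marker lists were also picked after their values were seen. The members and lists were chosen with earlier results of these data known. Alternatives were a pseudocount of 0.1, other filters and scalings, limma without a trend, the replicate number as a block, and leaving out each library. Figures were drawn with matplotlib 3.10.9.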

Additional observations from a re-analysis of the deposited data

How the results depend on the processing

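Without a replicate block, no cytokine difference passed the test with 2 pools per genotype, and *Il2*, *Lta* and *Il17a* are limited by fragments. Over the 12009 genes, 797 differed by more than 1 on the log2 scale, 93.4% of them higher. This count was 1381 with a pseudocount of 0.1 (87.1% higher), 1488 with scaling to T cell genes (98.3% higher, and a median of all genes of 0.383), and 341 to 1489 when 1 library was left out, with 80.7% to 89.7% higher. Without deficient 1 these were 1242 higher and 247 lower, without deficient 3 313 higher and 75 lower. Of the cytokine genes, 2 passed this size as reported, 1 with a filter of at least 5 FPKM, which tested 4 of them, 1 with scaling to T cell genes, and 0 to 5 when 1 library was left out (0 without control 1, 5 without deficient 1, 1 without deficient 3). Of the genes of the 6 lists 1 passed it as reported, 9 with scaling to T cell genes and 1 to 15 when 1 library was left out (8 without control 3 and 15 without deficient 1).

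A pseudocount of 0.1 moved *Lta* from −0.18 to −0.99 and *Il17a* from −1.28 to −2.12, and quantile normalization moved *Csf2* to −0.35, *Ifng* to −0.22 and *Lta* to −0.30. Scaling to T cell genes turned the differences of *Csf2* to 0.15, *Ifng* to 0.23, *Ltb* to 0.28 and *Tnf* to 0.22, each below the median of all genes. It also turned the medians of the receptors to 0.27, the other cytokines to 0.19, the transcription factors to 0.20, the mRNA decay factors to 0.27 and the IFN-γ response to 0.20. Leaving out 1 library gave −0.60 to 0.30 for *Csf2*, −1.76 to 1.48 for *Ifng*, −1.22 to 0.86 for *Lta*, −1.17 to 0.90 for *Ltb* and −0.66 to 0.34 for *Tnf*, with the highest value of each without deficient 3 and the lowest without deficient 1. The list medians ranged from −0.275 to 0.068 for the receptors, −0.283 to 0.29 for the other cytokines (0.021 without control 1), −0.547 to 0.049 for the transcription factors, −0.158 to 0.068 for the decay factors and −0.58 to 0.17 for the IFN-γ response, positive without deficient 3. *Il10* stayed between −1.70 and −0.42 and *Il17a* between −1.97 and −0.59 when 1 library was left out. Where a group was left with 1 library, that library is assumed to vary like the others. The causes of these shifts were not tested.

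Neither the labels nor the study's methods say that a replicate number marks a shared litter, batch or day. Deviations of same-numbered libraries from their group means correlated at 0.56 across genes, a hint from the data and not from the design. With the replicate number as a block, limma gave 1019 genes with an adjusted p under 0.05 (8.49% of genes, against 0 without the block), among them 2 cytokine genes, *Il10* (adjusted p = 0.00701) and *Il17a* (adjusted p = 0.0222), where 1.11% of all genes were called lower. The block changed no other call of the cytokine genes. Under the other settings no cytokine gene had an adjusted p under 0.05 in limma, the adjusted p lying between 0.342 and 0.9999.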
